A study of Mus musculus with 15 samples.

Results

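The 8 genes described here are regulators of the choice between absorptive and secretory cells in the intestinal epithelium. They are the receptor Notch1, its ligands Dll1 and Dll4, the Notch target Hes1, and the transcription factors Atoh1, Gfi1, Spdef and Neurog3. They were picked by name from the 18820 genes measured, each through its probe set with 1 gene symbol, and each had 1 such probe set. Their levels were followed in monolayers of mouse duodenal organoid cells exposed to 4 protein sources. Organoids were grown from the duodenum of female wild type C57BL/6J mice aged 9 weeks, dissociated, and plated as a monolayer in a medium with Egf, Noggin, Wnt3a and R-spondin, which all groups shared. Casein (CAS), soybean meal (SBM), spray-dried plasma protein (SDPP) and yellow mealworm (YMW) were applied for 6 h as the soluble fraction at a dose labelled 4% w/v, a label that does not match the protein mass per volume given beside it in the methods. The medium control (MC) was DMEM alone. RNA of 15 samples, 3 for each of the 5 groups and each pooled from 3 wells, was hybridised to Affymetrix mouse gene 1.1 ST arrays. Organoids came from 3 mice, and the labels call the samples biological replicates without naming the mouse of each.

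In the crypt, a cell that presents a Delta ligand activates the Notch receptor of its neighbour. The cleaved receptor enters the nucleus, where with Rbpj it turns on repressors such as Hes1. Hes1 holds down Atoh1, so cells with active Notch stay progenitors or become enterocytes. Cells that escape express Atoh1 together with Dll1 and Dll4, and go on to Paneth and goblet fates through Gfi1 and Spdef, or to the enteroendocrine fate through Neurog3. The Wnt-rich medium used here is known to favour stem and progenitor cells.

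All 8 genes were above background, a log2 intensity of 3.91 set by olfactory and vomeronasal receptor genes. The mean intensity over the 15 arrays was 355 for Hes1, 298 for Spdef, 251 for Atoh1, 112 for Notch1, 103 for Dll1, 93.0 for Neurog3, 70.0 for Dll4 and 35.7 for Gfi1. Probes differ in brightness, so these values do not rank the genes. The epithelial genes Vil1 and Cdx2 had mean log2 intensities of 10.86 and 9.94. The stromal and immune genes Dcn, Pecam1, Ptprc, Adgre1 and Itgax were below background (3.91). Col1a1, Vim and Col3a1 were above it at 5.22, 5.26 and 4.91, as were Acta2, Cd3e and Des at 4.02, 3.98 and 3.96. Products of the secretory cells were present, with median log2 intensities over the 12 treated arrays of 9.12 for the goblet mucin Muc2, 11.5 for the Paneth lysozyme Lyz1, 8.27 for the enteroendocrine granin Chga and 5.07 for the tuft kinase Dclk1.

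The MC arrays did not lie together. In MC replicate 1, 84.2% of all genes lay between the lowest and the highest of the 12 treated arrays, against 66.7% in MC replicate 2 and 59.7% in MC replicate 3. Of the 8 regulators, 7 lay within that range in MC replicate 1, and 5 did so in replicates 2 and 3. Each comparison with the MC rests on these same 3 arrays, so the 4 sources do not give independent comparisons with it. The number of arrays limits the precision.

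No regulator passed the study's threshold, an unadjusted p under 0.05 with at least a 1.5-fold change, with any protein source. The count was 0 of 8 with CAS, where 3.85% of all genes passed, 0 of 8 with SBM (3.5% of all genes), 0 of 8 with SDPP (1.63%) and 0 of 8 with YMW (3.87%). It was also 0 of 8 for the mean of the 4 sources (3.35%). Nor did any pass after Benjamini-Hochberg adjustment of the limma p over all genes, where the smallest adjusted p was 0.132 for a source alone and 0.0842 for the mean of the 4, both for Hes1. The largest fold was 1.43, for Spdef with YMW. At an unadjusted p under 0.05 in limma, the regulators apart from the MC were 4 for CAS against 16.5% of all genes, 4 for YMW against 19.0%, 2 for SBM against 18.2%, 2 for SDPP against 12.0%, and 3 for the mean of the sources against 23.0%. The median log2 fold change of the 8 regulators was 0.09, 0.23, 0.04 and -0.12 in CAS, SBM, SDPP and YMW, and that of all genes lay between -0.01 and 0.02.

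A p that misses the threshold does not show that a level stayed the same, and the intervals say how far it could have moved. Of the 32 log2 fold changes, 20 had a 95% interval wholly inside 1.5-fold in either direction. These were all 4 for Atoh1, Dll1 and Gfi1, 3 of 4 for Dll4 and Neurog3, and 2 of 4 for Notch1. No interval for Hes1 or Spdef was that narrow. Taken over all 32, the intervals ran from a ratio of 0.611 to one of 1.85.

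**Figure D1:**
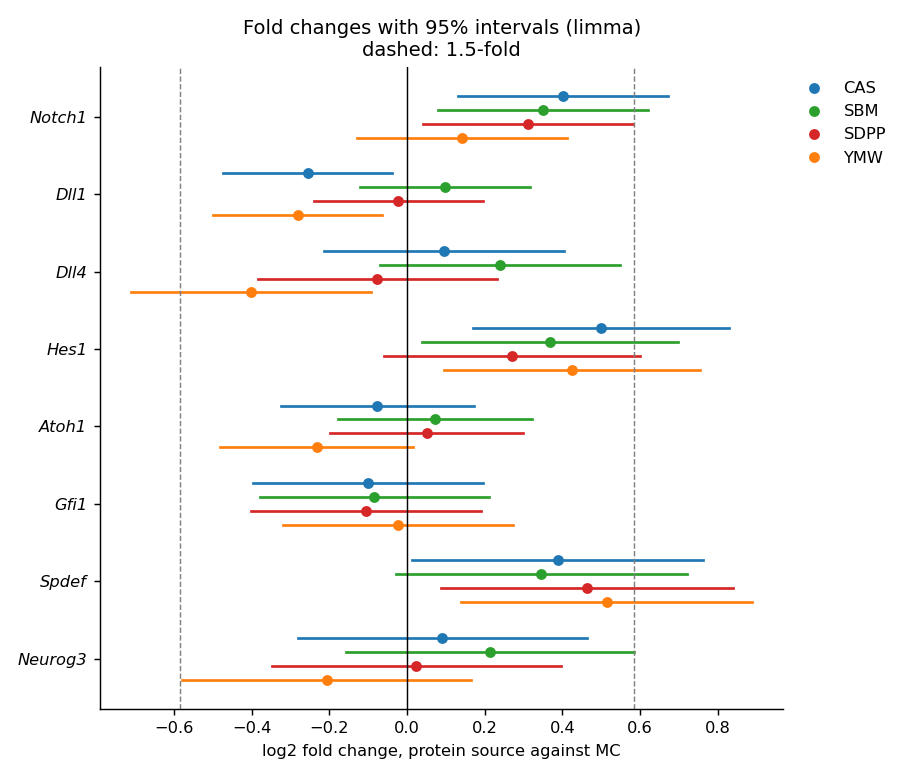
Log2 fold change of each of the 8 genes in each protein source against the MC (points) with its 95% interval from limma (bars). Dashed lines mark 1.5-fold. Every point lies inside the dashed lines, and the intervals of Hes1 and Spdef cross the upper one in all 4 sources.

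Notch1 encodes the receptor. Its log2 intensity was 6.81, 6.54 and 6.31 in the MC, 7.13, 6.81 and 6.93 with CAS, 6.81, 6.95 and 6.94 with SBM, 6.79, 6.78 and 7.03 with SDPP, and 6.75, 6.74 and 6.58 for YMW. MC replicates 2 and 3 lay below all 12 treated arrays, while MC replicate 1 lay among them. The log2 fold change was 0.40, 0.35, 0.31 and 0.14 in CAS, SBM, SDPP and YMW (SE 0.13 each, n = 3 arrays a group), with limma adjusted p from 0.137 to 0.589. The YMW arrays were below the arrays of the other 3 sources without overlap, a difference of -0.21 (SE 0.10, limma adjusted p = 0.925). How many of all genes separate 1 source from the other 3 in this way was not counted.

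The other receptors, Notch2, Notch3 and Notch4, also missed the threshold with each source. The median log2 fold change of the 4 receptors was 0.21, 0.13, 0.18 and 0.16 in CAS, SBM, SDPP and YMW. Without MC replicates 2 and 3 these medians became 0.10, -0.06, 0.01 and -0.04, and without MC replicate 1 they were 0.33, 0.25, 0.29 and 0.29.

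Dll1, the ligand that marks early secretory progenitors, was at 6.65, 6.88 and 6.78 in the MC, 6.44, 6.59 and 6.51 with CAS, 6.91, 6.83 and 6.85 with SBM, 6.65, 6.73 and 6.85 with SDPP, and 6.68, 6.44 and 6.33 for YMW. The CAS arrays lay below the MC arrays without overlap, and YMW replicate 1 overlapped the MC. The log2 fold change was -0.26, 0.10, -0.02 and -0.28 in CAS, SBM, SDPP and YMW (SE 0.10 each, limma adjusted p from 0.167 to 0.947).

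Dll4, the partner of Dll1 on secretory precursors, read 6.23, 6.08 and 6.09 in the MC, 6.27, 6.37 and 6.04 with CAS, 6.47, 6.36 and 6.29 with SBM, 5.73, 6.06 and 6.39 with SDPP, and 5.58, 5.75 and 5.86 for YMW. All 3 YMW arrays were below all 3 MC arrays and all 3 SBM arrays above them, while the SDPP arrays spanned both. The log2 fold change was 0.09, 0.24, -0.08 and -0.40 in CAS, SBM, SDPP and YMW (SE 0.14 each, limma adjusted p from 0.165 to 0.858). The 95% interval of the YMW value ran from -0.71 to -0.09.

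Hes1, the repressor that Notch turns on, read 8.59, 7.97 and 7.85 in the MC, 8.55, 8.81 and 8.56 with CAS, 8.49, 8.40 and 8.63 with SBM, 8.25, 8.49 and 8.49 with SDPP, and 8.47, 8.58 and 8.64 for YMW. MC replicates 2 and 3 were again below all treated arrays and MC replicate 1 among them, so each group overlapped the MC. The SD within the MC was 0.40, against 0.12 pooled over the sources. The log2 fold change was 0.50, 0.37, 0.27 and 0.42 in CAS, SBM, SDPP and YMW (SE 0.15 each, limma adjusted p from 0.132 to 0.491). Without MC replicate 1, the values with CAS, SBM and YMW became 0.73, 0.59 and 0.65 and passed the study's threshold. In that fit 9.08%, 9.40% and 9.53% of all genes passed it with these sources. With MC replicate 1 as the only control, the 4 values were 0.04, -0.09, -0.19 and -0.03.

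Atoh1, which commits a cell to the secretory lineage, read 8.03, 8.03 and 7.95 in the MC, 8.03, 8.00 and 7.75 with CAS, 8.13, 7.96 and 8.13 with SBM, 7.83, 8.20 and 8.12 with SDPP, and 7.57, 7.80 and 7.93 for YMW. The MC arrays were close to each other (SD 0.05), unlike for Hes1, and the YMW arrays were all below them. The log2 fold change was -0.08, 0.07, 0.05 and -0.23 in CAS, SBM, SDPP and YMW (SE 0.12 each, limma adjusted p from 0.293 to 0.891).

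Spdef, which acts in goblet and Paneth cell maturation, read 8.28, 7.56 and 7.72 in the MC, 8.48, 8.21 and 8.04 with CAS, 8.23, 8.21 and 8.16 with SBM, 8.17, 8.25 and 8.54 with SDPP, and 8.08, 8.51 and 8.52 for YMW. As for Hes1, MC replicates 2 and 3 were below all treated arrays and MC replicate 1 was not. The log2 fold change was 0.39, 0.35, 0.46 and 0.51 in CAS, SBM, SDPP and YMW (SE 0.18 each, limma adjusted p from 0.153 to 0.369). Without MC replicate 1 the values with CAS, SDPP and YMW were 0.60, 0.68 and 0.73 and passed the study's threshold. In that fit 9.08%, 7.33% and 9.53% of all genes passed it with these sources. With MC replicate 1 as the only control the 4 values lay between -0.08 and 0.09.

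Gfi1, which acts below Atoh1 in goblet and Paneth precursors, ranged from 4.91 to 5.49 over the 15 arrays. MC replicate 1 was the highest array, and the log2 fold changes lay between -0.11 and -0.02 (SE 0.14). Neurog3, which starts the enteroendocrine programme, read 6.60, 6.59 and 6.29 in the MC, 6.80, 6.49 and 6.47 with CAS, 7.0, 6.58 and 6.55 with SBM, 6.44, 6.31 and 6.81 with SDPP, and 5.98, 6.51 and 6.37 for YMW. Each source overlapped the MC, and the log2 fold changes were 0.09, 0.21, 0.02 and -0.21 (SE 0.17).

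**Figure D2:**
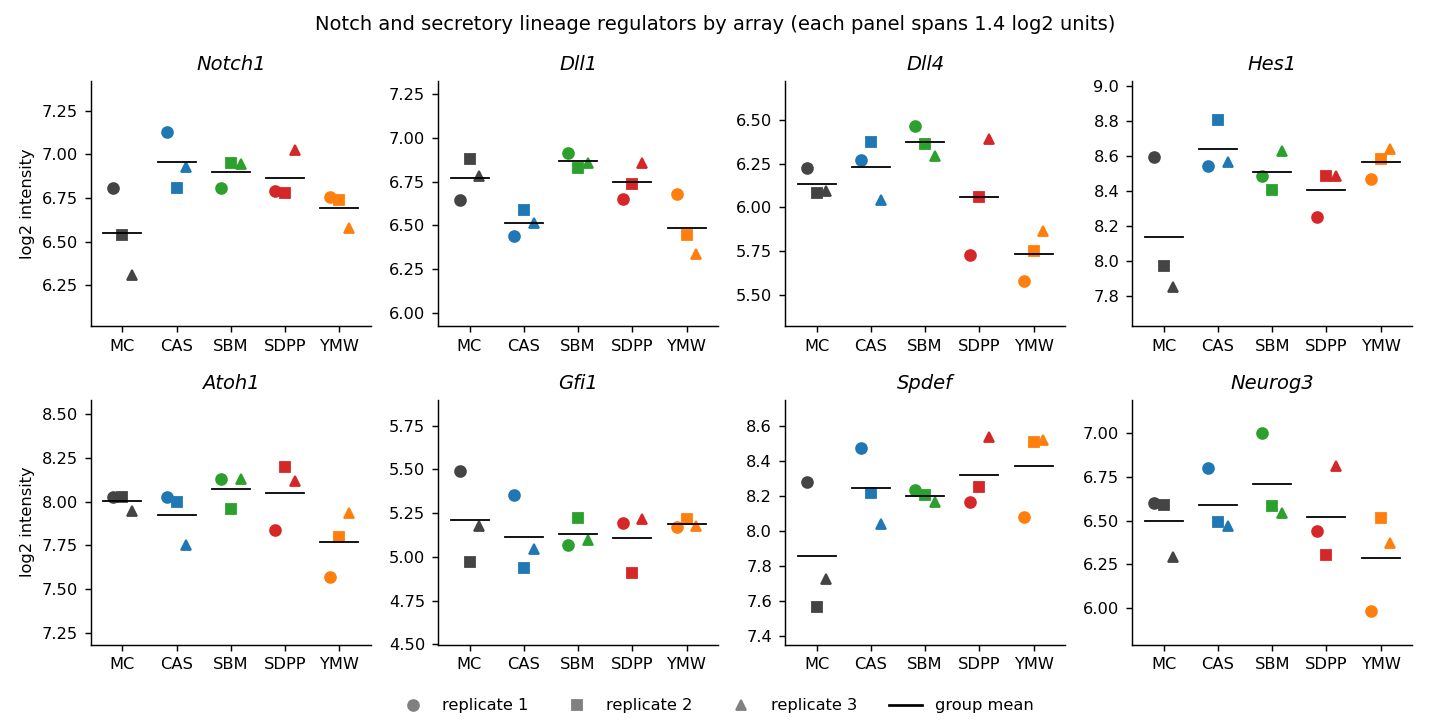
Log2 intensity of the 8 genes (vertical axes, each spanning the same number of log2 units) in the MC and the 4 protein sources. Points are arrays, with circles, squares and triangles for replicates 1, 2 and 3, and lines are group means. MC replicates 2 and 3 sit below every treated array for Notch1, Hes1 and Spdef, and the YMW arrays of Dll4 sit below the MC.

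Across the 32 pairs of a gene and a source, the source and MC arrays did not overlap in 4. These were Dll1 with CAS (13.2% of all genes did not overlap there), Dll4 with SBM (13.9%), and Dll4 and Atoh1 with YMW (14.5%). With SDPP all 8 regulators overlapped the MC, and 10.8% of all genes did not. When the 5 groups were ordered by their mean for each gene, 30 of the 32 steps between neighbours were no larger than the larger SD of both groups. The exceptions were the step from SDPP to YMW for Notch1 and that from SDPP to CAS for Dll1. Groups next to each other in such an order are the closest ones, and the steps were not counted over all genes. The count is thus no measure of how far the groups differ.

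The protein sources were also compared with each other, which leaves the MC arrays out of the difference. Here the regulators with unadjusted p under 0.05 were 1 for CAS, where 5.36% of all genes had one, 2 for SBM (4.83%), 0 for SDPP (2.42%) and 4 for YMW (5.5%). In an F test among the 4 sources 2 did, against 4.56% of all genes. These 2 were Dll4 (limma adjusted p = 0.581) and Dll1 (limma adjusted p = 0.662). No regulator had an adjusted p under 0.05 in these comparisons, and the smallest was 0.424.

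The 4 with YMW were all lower than in the other sources. The log2 difference was -0.49 for Dll4 (SE 0.12, limma adjusted p = 0.424), -0.32 for Neurog3 (SE 0.14, limma adjusted p = 0.899), -0.25 for Atoh1 (SE 0.10, limma adjusted p = 0.859) and -0.22 for Dll1 (SE 0.08, limma adjusted p = 0.831). Each of these 4 groups of YMW arrays overlapped those of the other sources. The 2 with SBM were the ligands, higher by 0.37 for Dll4 and 0.28 for Dll1 than in the other sources (limma adjusted p = 0.856 and 0.752). The value with CAS was Dll1, at -0.19 (limma adjusted p = 0.903). Hes1 and Spdef, whose MC arrays stood apart, each had a limma F test adjusted p of 1.00 after rounding. In bulk RNA, fewer cells of a type and less RNA per cell cannot be told apart.

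Dll4, the secretory factor Atoh1 and Neurog3 gave the 3 highest values of Pearson's r among the regulators over the 12 treated arrays. By Spearman's rho, Notch1 with Neurog3 (0.71, adjusted permutation p = 0.113) stood above Atoh1 with Neurog3 (0.47), and with groups centred the highest r were those of Spdef with Neurog3 (0.82), Notch1 with Gfi1 (0.76) and Dll4 with Spdef (0.76), each with an adjusted permutation p of 0.214. Among the 28 pairs of regulators, examined after the values had been seen, Pearson's r ran from -0.36 to 0.77 and was positive in 21. Dll4 and Neurog3 had r = 0.77 (permutation p = 0.00175, adjusted p = 0.0490 over the 28 pairs) and Spearman's rho of 0.78 (permutation p = 0.00351, adjusted p = 0.0983). Without the 2 arrays farthest from the median of Dll4, r was 0.66 (adjusted permutation p = 0.566). It was 0.61 with each group centred on its mean (adjusted permutation p = 0.315) and 0.65 without the YMW arrays (adjusted permutation p = 0.474). The relation thus passed the adjusted threshold only in Pearson's r over all treated arrays, among the forms run.

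Dll4 and Atoh1 had r = 0.76 (permutation p = 0.00426, adjusted p = 0.0596) and rho of 0.73 (permutation p = 0.00986, adjusted p = 0.113). Their r was 0.58 without the 2 farthest arrays, 0.75 with groups centred and 0.54 without YMW. YMW replicate 1 was lowest for all 3 genes, and SBM replicate 1 was highest for Dll4 and Neurog3.

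**Figure D3:**
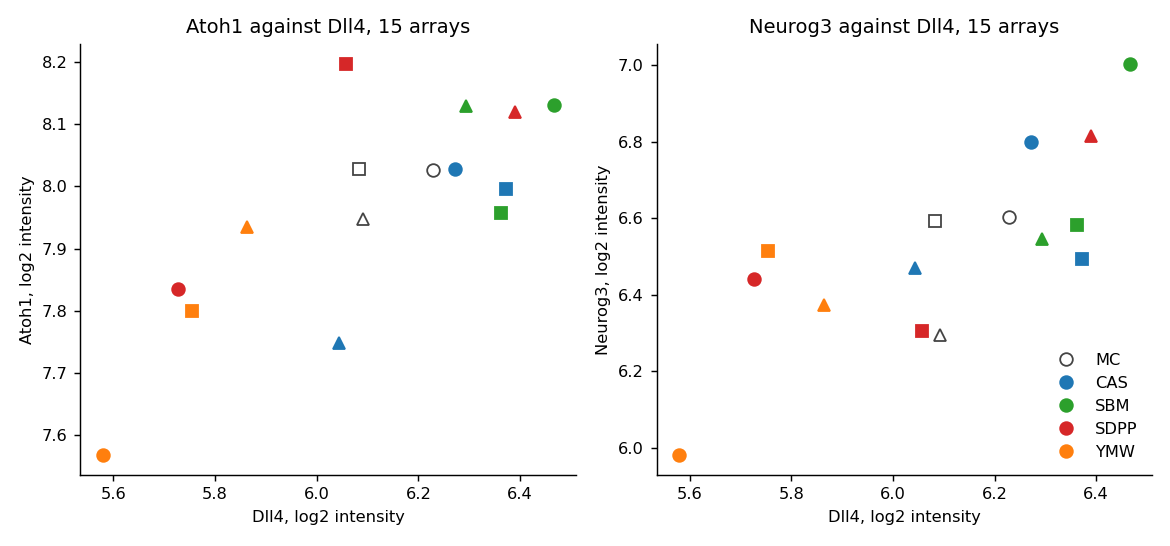
Log2 intensity of Atoh1 (left) and Neurog3 (right) against that of Dll4 on the 15 arrays, coloured by group with open symbols for the MC. Circles, squares and triangles are replicates 1, 2 and 3. YMW replicate 1 is at the lower left of both panels, and SBM arrays lie to the right.

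The bases before the starts of these 3 genes are shown because the genes gave these values of Pearson's r, a choice made after they were seen, and because Hes1 protein is known to bind sites of the form CACGCG and CACNAG. The sequences are those of RefSeq on GRCm38.p6, 250 bases up to the start on the plus strand, Atoh1 at chr6:64728875-64729124, Dll4 at chr2:119325534-119325783 and Neurog3 at chr10:62132840-62133089. Capitals mark CACGCG in either orientation, which reads CGCGTG on the other strand.
Atoh1: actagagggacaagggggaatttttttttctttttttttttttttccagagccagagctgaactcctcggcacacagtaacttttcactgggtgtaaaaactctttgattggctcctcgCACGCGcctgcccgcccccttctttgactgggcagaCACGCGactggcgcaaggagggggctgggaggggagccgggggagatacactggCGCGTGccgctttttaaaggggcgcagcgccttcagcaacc
Dll4: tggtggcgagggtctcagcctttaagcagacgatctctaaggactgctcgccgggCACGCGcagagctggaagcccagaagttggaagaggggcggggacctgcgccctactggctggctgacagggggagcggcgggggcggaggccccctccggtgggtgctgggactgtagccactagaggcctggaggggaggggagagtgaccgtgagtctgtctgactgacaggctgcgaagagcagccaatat
Neurog3: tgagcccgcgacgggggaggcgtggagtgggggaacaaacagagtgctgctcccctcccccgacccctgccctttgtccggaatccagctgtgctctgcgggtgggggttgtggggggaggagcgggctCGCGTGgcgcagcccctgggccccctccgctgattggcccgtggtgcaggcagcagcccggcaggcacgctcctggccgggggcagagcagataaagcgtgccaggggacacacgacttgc

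Such windows were at hand for 7 of the 8 regulators, all but Hes1, with 9 windows in all. The Atoh1 window held CACGCG at 131, 95 and 41 bases before the start. At least 3 copies were present in 0.225% of the 32851 mouse windows of this length searched, and at least 1 in 7.62%. Dll4 had 1 copy at 195 bases, Neurog3 had 1 at 121, and 1 of the windows of Dll1 had 1 at 68. The windows of Notch1, Gfi1 and Spdef held none. CACNAG was in the windows of Dll4 and Notch1 and in 36.7% of all windows, and GTGGGAA, the core of the Rbpj site, was in none of the 9 and in 5.42% of all. CAGCTG, an E-box, was in the Neurog3 window and 1 of Dll1 (13.0% of all). The E-box CAGATG (14.4% of all) and TATAAA (12.4% of all) were in no window of the 7 genes. Both strands were searched, and a match of letters is a description and not a binding site.

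Hes1 was set against each of the other 7 regulators over the 12 treated arrays, since it is known to hold down Atoh1 and the ligands. No relation had an adjusted permutation p under 0.05. Pearson's r was 0.15 with Atoh1 (rho 0.07), -0.34 with Dll1 (rho -0.44), 0.28 with Dll4 (rho 0.15), 0.01 with Neurog3 (rho 0.01), 0.18 with Spdef (rho 0.23), -0.36 with Gfi1 (rho -0.31) and -0.10 with Notch1 (rho -0.14). Adjusted permutation p over the 7 relations was 0.886 or above for r, and 0.916 or above for rho. With groups centred, r with Atoh1 was 0.73 (permutation p = 0.0300, adjusted p = 0.210), and without CAS replicate 2 and SDPP replicate 1, the arrays farthest from the Hes1 median, it was -0.01.

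Of 76 listed genes of the Notch pathway in 6 groups by role, 72 were measured and 69 were above background. With CAS 3 rose and 1 fell, with SBM 2 rose and 1 fell, with SDPP 2 rose and none fell, and with YMW 2 rose and 2 fell, at the study's threshold, which 3.85%, 3.5%, 1.63% and 3.87% of all genes passed. The median log2 fold change of the 72 was 0.04, -0.01, 0.02 and 0.04. With MC replicate 1 as the only control none of the 72 passed with any source, against 0.834%, 0.611%, 0.744% and 0.494% of all genes in CAS, SBM, SDPP and YMW. Without that array, when 9.08%, 9.40%, 7.33% and 9.53% of all genes passed, 6 rose and 2 fell with CAS, 6 and 2 with SBM, 4 and 2 with SDPP, and 6 and 3 for YMW.

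None of the 8 ligands passed in any source, and the log2 fold changes of Jag1 were 0.20, 0.14, 0.18 and 0.18 with CAS, SBM, SDPP and YMW. Among 13 genes of receptor maturation and cleavage, Lfng, a glycosyltransferase that modifies Notch receptors, rose with CAS (log2 fold change 0.98, SE 0.22) and SDPP (0.67), and its values with SBM and YMW were 0.56 and 0.45. Its MC arrays read 6.36, 5.72 and 5.29 and the treated arrays ran from 6.13 to 6.97, so MC replicate 1 was among them. Of 15 endocytosis and turnover genes, Neurl3, a ubiquitin ligase of the neuralized family, fell with CAS (-0.91, SE 0.20), SBM (-0.61) and YMW (-0.69), and was at -0.52 with SDPP. Its MC arrays read 8.42, 9.35 and 9.49 against 8.13 to 8.76 in the treated arrays. Of 20 nuclear genes, the Groucho corepressor Tle4 fell with YMW (-0.63, SE 0.14). Its MC arrays read 7.33, 7.92 and 8.07 and the treated arrays 7.03 to 7.35, with MC replicate 1 among them. Its value for the mean of the sources was -0.52. There it was the 1 gene of the 72 with a limma adjusted p under 0.05 (0.045), and 286 of all 18820 genes had one.

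Of 14 target genes, Olfm4, a stem cell gene that depends on Notch, rose with all 4 sources, by 1.5, 1.54, 1.45 and 1.52 on the log2 scale (SE 0.51 each, limma adjusted p from 0.15 to 0.359). It read 11.68, 10.06 and 8.53 in the MC and 11.23 to 11.89 in the treated arrays, so MC replicate 1 was within the treated range and the rest of the MC far below. Bcl2, which protects cells from apoptosis, rose with CAS (0.63), SBM (0.62) and YMW (0.59) and was at 0.52 with SDPP. Its MC arrays read 7.17, 6.19 and 5.98 and the treated arrays 6.83 to 7.24, with MC replicate 1 among them. The feedback inhibitor Nrarp was at 0.10, 0.08, 0.19 and -0.00 and did not pass. The mean log2 intensities of Hey1 and Hey2 were 3.89 and 3.65, below background, and that of Heyl was 4.04.

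**Figure D4:**
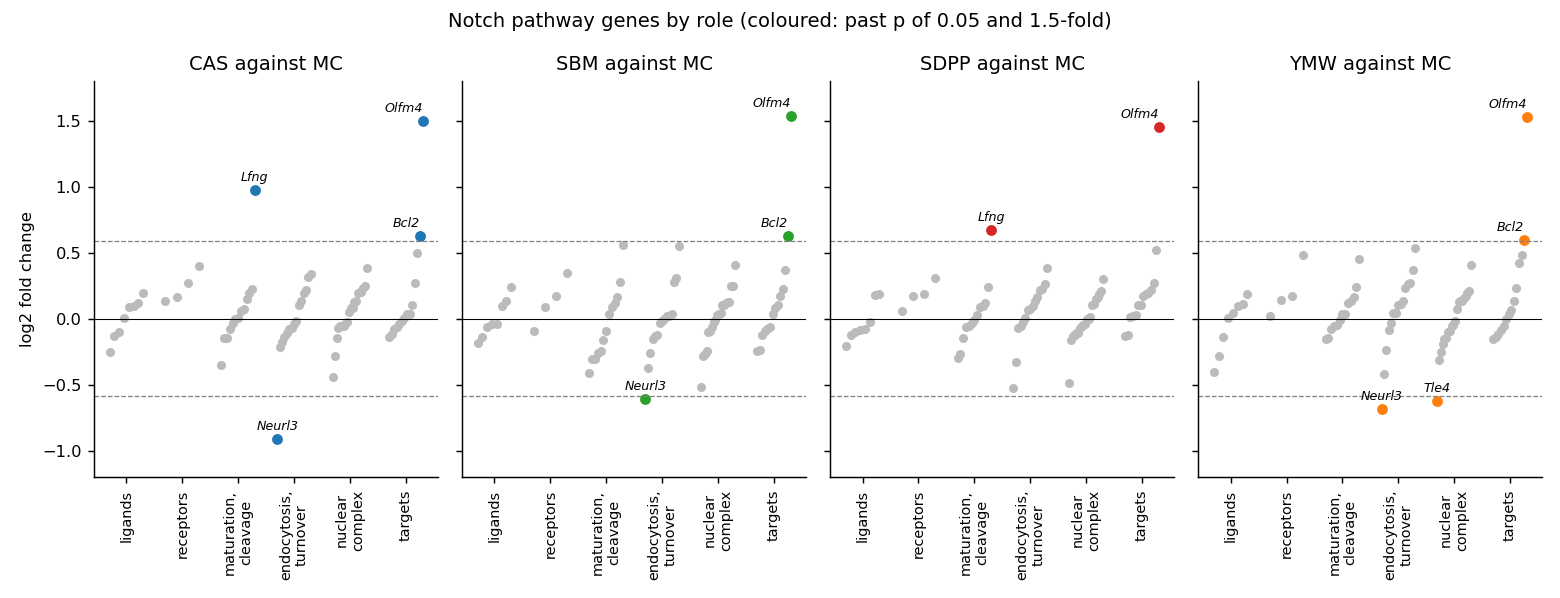
Log2 fold change against the MC of 72 Notch pathway genes, grouped by role and sorted within each group, 1 panel for each source. Coloured, named points passed p under 0.05 and 1.5-fold (dashed lines). Olfm4 stands highest in every panel, and most genes lie near 0.

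Among 21 regulators of secretory progenitors and of Paneth and goblet cells, a list that holds Atoh1, Gfi1, Spdef, Dll1 and Dll4, 2 rose and 1 fell with CAS, SBM and YMW, and none passed with SDPP. These counts moved with the control as the Notch genes did. With MC replicate 1 as the only control none rose, and Sox9 fell with YMW. Without that array 7, 5, 4 and 5 rose and 1 fell in each source, beside the 7.33% to 9.53% of all genes that then passed. Sox4, which acts in tuft and enteroendocrine precursors, rose with CAS (1.23, SE 0.30), SBM (0.74) and YMW (0.67) and was at 0.64 with SDPP. It read 8.92, 7.93 and 7.36 in the MC and 8.41 to 9.58 in the treated arrays. Klf4, a factor of mature goblet and surface cells, fell with CAS (-1.03, SE 0.38), SBM (-0.96) and YMW (-0.95) and was at -0.61 with SDPP. It read 7.11, 8.62 and 8.86 in the MC and 6.76 to 7.92 in the treated arrays, so for both genes MC replicate 1 was among the treated arrays. Creb3l1 rose with SBM (0.67) and YMW (0.74). Its MC arrays read 8.19, 6.94 and 6.96 and the treated arrays 7.63 to 8.40, with MC replicate 1 among them. The Paneth factor Sox9 rose with CAS alone at the threshold (0.79), with 0.18, 0.28 and -0.12 in the other sources. Sox9 read 9.33, 8.78 and 8.26 in the MC and 8.52 to 9.73 in the treated arrays. In the list of 19 enteroendocrine regulators Sox4 was the gene that rose. None of the 19 passed with MC replicate 1 as the only control, and 2 rose in each source without it.

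The products of the secretory cells gave mixed values at the study's threshold, which 1.63% to 3.87% of all genes passed with a source. Of 10 goblet products, Clca1 and Zg16 fell with CAS, SBM and YMW, while St6galnac1 rose and Clca1 fell with SDPP, and Muc2 passed with none. Of 10 Paneth products Mmp7 rose with CAS and Nupr1 with YMW, Nupr1 rose and Pnliprp2 fell with SBM, and none passed with SDPP. Of 15 enteroendocrine products 1 rose with CAS and SBM, 2 rose with SDPP, and 1 rose and 1 fell with YMW, and the neuropeptide gene Tac1 was the one that rose in all 4. Tac1 read 6.50, 4.70 and 4.83 in the MC against 6.08 to 6.94 in the treated arrays. Of 11 tuft genes, Sox9, named above as a Paneth factor, rose with CAS, and the channel gene Trpm5 fell with SBM and YMW. Trpm5 read 5.14, 5.62 and 5.57 in the MC against 4.66 to 5.36 in the treated arrays. Without MC replicate 1 Sox9 rose with CAS, and Trpm5 fell with CAS, SBM and YMW, where 9.08%, 9.40% and 9.53% of all genes passed. With MC replicate 1 as the only control, median log2 fold changes are given for CAS, SBM, SDPP and YMW in turn. They were 0.05, 0.12, 0.06 and 0.07 for the goblet products, and -0.06, -0.15, -0.14 and -0.11 for the Paneth products. For the enteroendocrine products they were 0.24, 0.09, 0.33 and 0.15. Without that array Clca1 and Zg16 fell in each source and St6galnac1 rose with SDPP. Of the Paneth products 2, 3, 2 and 3 then rose and 1 fell in each source, and of the enteroendocrine products 1, 1, 3 and 2 rose and 3, 3, 1 and 4 fell, beside the 7.33% to 9.53% of all genes that passed.

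Markers of other cell states, like Hes1, Notch1 and Spdef, set MC replicates 2 and 3 apart from MC replicate 1. In replicates 2 and 3 the stem and cycling cell genes were lower, as were these 3 regulators, and the enterocyte genes were higher. The mean log2 intensity of 23 enterocyte genes, all above background, was 8.47 in MC replicate 1, 9.81 in replicate 2 and 9.86 in replicate 3, and 8.30 to 9.47 in the treated arrays. Their summed intensity was 18286, 46422 and 48340 in the MC and 16002 to 35680 in the treated arrays. The mean of 14 stem cell genes was 8.89, 8.20 and 7.76 in the MC and 8.59 to 9.02 in the treated arrays, and that of 13 cycling cell genes was 9.16, 8.51 and 8.08 against 8.88 to 9.20. MC replicates 2 and 3 thus lay outside the treated arrays in all 3 lists, as they did for Hes1, Notch1 and Spdef. They also did for the mean of 10 goblet products, at 8.74 and 8.88 against 8.53 to 8.71. For 10 Paneth products the means were 9.42 and 9.37 against 9.44 to 9.66. The lists of Notch targets and secretory progenitor regulators, which hold Hes1 and Spdef, lay outside too. Those of Notch receptors and enteroendocrine regulators did as well. Those of 15 enteroendocrine products and 11 tuft genes lay within the treated range by mean log2 intensity, but not by summed intensity. The enteroendocrine sums were 3018 and 3230 in MC replicates 2 and 3 against 3703 to 4374 in the treated arrays. The tuft sum was 584 in MC replicate 3 against 646 to 1131, with replicate 2 within that range. Of the 14 stem cell genes 4 rose with CAS and 3 with each other source, Lgr5 and Olfm4 among them. Of all genes, 1.63% to 3.87% passed the study's threshold with a source, in either direction. Of the 13 cycling cell genes 7 rose with SBM and 6 with each other source. Of the 23 enterocyte genes, 5 fell with CAS, 9 with SBM, 3 with SDPP and 7 for YMW. With MC replicate 1 as the only control no gene of the 3 lists passed except Sox9, a stem cell gene here, which fell with YMW. Without that array 6, 8, 5 and 7 stem cell genes and 8, 9, 8 and 9 cycling cell genes rose, and 17, 15, 11 and 15 enterocyte genes fell, while 7.33% to 9.53% of all genes passed. Of 18 mesenchymal and immune markers, 9 were below background and none passed with any source when all arrays were used. Without MC replicate 1 Vim rose with each source, and Cd68 also rose with YMW. The part of these cell states in the values of the regulators was not tested.

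**Figure D5:**
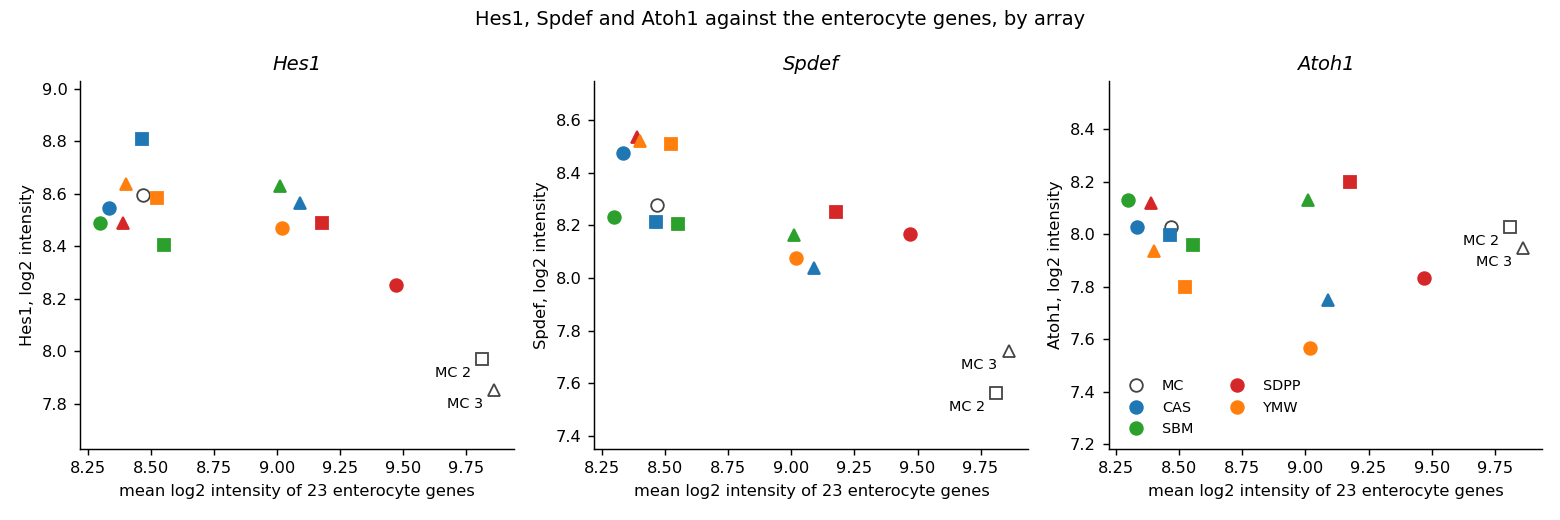
Log2 intensity of Hes1, Spdef and Atoh1 (vertical axes) against the mean log2 intensity of 23 enterocyte genes (horizontal axis) on the 15 arrays, with open symbols for the MC and circles, squares and triangles for replicates 1, 2 and 3. MC replicates 2 and 3 lie at the right in each panel, low for Hes1 and Spdef and within the treated range for Atoh1.

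The genes most like each regulator over the 15 arrays were sought among 12255 genes above background. Spdef was closest to Sik1 (Pearson's r = 0.97) and Etv4 (0.96), and Hes1 to Trim32 (0.95). MC replicates 2 and 3 were below all treated arrays for both regulators. Dll1 was closest to Mtfp1 (0.91), Notch1 to Zbtb44 (0.89), Neurog3 to Mta2 (0.88), Dll4 to Msl2 (0.87), Gfi1 to Igsf11 (0.85) and Atoh1 to Eef1akmt1 (0.80). Over the 12 treated arrays alone, Dll1 was again closest to Mtfp1 (0.90) and Dll4 to Msl2 (0.89), and the closest gene changed for the other 6, to Cotl1 for Spdef (0.96), Bcl7a for Hes1 (0.86), Tsn for Neurog3 (0.94), Tfip11 for Atoh1 (0.90), Tnfsf15 for Notch1 (0.90) and Slc4a1 for Gfi1 (0.88). These are the highest of many correlations over few arrays and are given as a description.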

How the data were processed

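Intensity values of 15 arrays come from RMA as run by the authors (version not given in the sources used here), which corrects background, quantile normalises and summarises each probe set. The deposited values are linear, from 3.02 to 10739. The planned tests were for a log2 scale, and the values were converted to it. Of 35556 probe sets, 21218 had 1 symbol in the platform annotation, and the brightest for each of 18820 genes was kept. Background was set at the 95th percentile of the means of 1157 genes for olfactory and vomeronasal receptors. Array medians lay between 21.7 and 24.1.

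One limma 3.58.1 fit (R 4.3.3) of 5 group means, with variances moderated along intensity, gave all comparisons, adjusted over 18820 genes after Benjamini-Hochberg. The fit was tested on simulated data. Correlations used 100000 permutations (scipy 1.17.1, two-sided). The 8 genes, the other lists and the tests were chosen with earlier results of these data known. Named were the 8 genes, up to 4 genes of each list past the threshold (up to 2 where none passed), markers and the most similar genes. Alternatives covered the prior variance, the statistic, the replicate block, the arrays fitted, filters, scaling, weights, thresholds, probe sets and left-out arrays.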

Additional observations from a re-analysis of the deposited data

How the results depend on the processing

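The count of regulators past the study's threshold was 0 in every comparison and stayed 0 under an adjusted p, 1 prior variance, the intensity based statistic, the arrays of the groups alone, the background filter, a second quantile normalisation, median centring, all probe sets and MC replicate 1 as the only control. With a replicate block it was also 0. The replicate numbers did not pair the arrays, with a median correlation of -0.08 over 30 same-number pairs, and 2 of 15 arrays closest to their own number. With no fold threshold the counts with CAS, SBM, SDPP, YMW and the mean of the sources were 4, 2, 2, 4 and 3, and against the other sources 1 for CAS, 2 for SBM and 4 for YMW, with 2 in the F test. With array weights, whose estimation stopped before convergence, the counts against the MC were 2, 1, 1, 2 and 1. Of all genes, 7.84%, 7.87%, 5.81%, 8.23% and 7.04% passed there. At a limma adjusted p under 0.05 with no fold threshold, array weights gave 4, 4, 3, 5 and 5 regulators. They gave 7530, 7449, 6375, 7144 and 10673 of the 18820 genes. Leaving out 1 array each gave 0 to 2 with CAS, 0 to 1 with SBM, 0 to 1 with SDPP, 0 to 2 with YMW and 0 to 2 for the mean. The high values came without MC replicate 1, when 9.08%, 9.40%, 7.33%, 9.53% and 8.68% of all genes passed. At a limma adjusted p under 0.05 there, 3 regulators passed in each comparison with the MC. So did 3685, 4018, 3083, 4013 and 4701 of all genes. YMW had 1 past the study's threshold without YMW replicate 1, for Spdef (0.66). The share of all genes that passed in that fit is not given here, so this count has no baseline. Counts over all genes ran from 157 to 1708 with CAS, 115 to 1769 with SBM, 85 to 1379 with SDPP and 93 to 1793 with YMW.

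Log2 fold changes that turned sign were these. With MC replicate 1 as the only control they did for Notch1 with YMW (-0.116), Dll1 with SDPP (0.0997), Hes1 with SBM, SDPP and YMW (-0.0880, -0.186 and -0.0305), Spdef with CAS and SBM (-0.0361 and -0.0776) and Neurog3 with CAS and SDPP (-0.0150 and -0.0821). With array weights they did for Dll1 with SBM (-0.0197), Neurog3 with CAS and SDPP (-0.0289 and -0.110), and Gfi1 with CAS, SBM, SDPP and YMW (0.0793, 0.174, 0.0918 and 0.213). Scaling turned Atoh1 with SDPP (-0.0148 with median centring) and Neurog3 with SDPP (-0.0474 with the second quantile normalisation and -0.0408 with median centring). Leaving out 1 array each gave both signs for Gfi1 with CAS (-0.223 to 0.0385), SBM (-0.206 to 0.0551), SDPP (-0.228 to 0.0327) and YMW (-0.145 to 0.116), the higher end in each case without MC replicate 1. It also did for Dll1 with SDPP (-0.0835 to 0.0329), Dll4 with SDPP (-0.242 to 0.0893), Atoh1 with CAS (-0.129 to 0.0112) and SDPP (-0.0233 to 0.158), and Neurog3 with CAS (-0.0153 to 0.150) and SDPP (-0.123 to 0.131). The correlation of Hes1 turned for Dll1 with groups centred (0.122), and without the 2 farthest arrays for Dll4 (-0.259), Atoh1 (-0.00984), Gfi1 (0.0131) and Neurog3 (-0.0553). The causes were not tested.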
